A study of Mus musculus with 24 samples.

Results

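The cartilage fibril collagens are the 7 genes Col2a1, Col9a1, Col9a2, Col9a3, Col11a1, Col11a2 and Col27a1, and their rows were taken by gene symbol from a count table of 52178 genes. All 7 were found once each, and all 7 passed the filter on low counts that left 21283 genes. RNA was sequenced from cartilage explants of C57/BL6 mice (C57/BL6J in the methods) after depletion of ribosomal RNA, in 24 libraries of 6 groups. The question the design puts to these genes is how their expression differs between articular and growth plate cartilage, and whether hydrostatic pressure changes it. Hip caps are the cartilage of the femoral head from 4-week-old male mice, with both caps of an animal in 1 sample. Metatarsals are the cartilage rudiments of embryos at E15, with 6 pooled per sample and no sex given. After 24 h in culture, the explants of each tissue were kept at 0 MPa (control) or put under 5 or 50 MPa for 1 h, and all were cultured for another 24 h before RNA extraction. Each group had 4 libraries, and the labels give no genetic alteration for any group. The labels write the unit of pressure as mPa, and MPa is used here as in the methods. The tissues differed in age, site and culture medium, and possibly in sex, as well as in cartilage type, and these cannot be told apart.

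Collagen II is the main fibril-forming collagen of cartilage and is a trimer of identical chains from Col2a1. Collagen XI, built from the products of Col11a1, Col11a2 and Col2a1, sits within the same fibril and limits its width. Collagen IX, with 1 chain each from Col9a1, Col9a2 and Col9a3, belongs to the FACIT collagens, which do not form fibrils themselves but lie on the surface of the collagen II fibril and connect it to the surrounding matrix. Collagen XXVII, from Col27a1, is a separate fibrillar collagen that forms thin fibrils, found mainly in cartilage. The chains are translated into the endoplasmic reticulum, hydroxylated, folded into triple helices with the help of chaperones, secreted and then trimmed by proteases, and SOX9 with SOX5 and SOX6 is known to drive several of these genes in chondrocytes.

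The libraries labelled hip cap control 4 and hip cap 50 MPa 2 stood apart from the rest of their groups and were left out, so that 22 libraries entered the fit: 3 hip cap controls, 4 hip caps at 5 MPa, 3 at 50 MPa and 4 libraries in each metatarsal group. Total counts in these 22 ranged from 4185557 to 25104484. Levels are given as CPM, that is read counts scaled to a common library size with the factors of the TMM method. They are given as CPM per kb of the longest annotated transcript where different genes are set against each other. The factors were computed over the 22 libraries. For the libraries left out they were computed over all 24, so their CPM is not on exactly the same scale. Libraries also differed in library type and in sequencing run, the latter as read from a published colour strip and therefore uncertain. Hip caps at 50 MPa were all unstranded and of run 1, hip caps at 5 MPa were all stranded and of run 2, and only 1 of the 3 hip cap controls used was unstranded, so every comparison of pressures in hip caps rests partly on the terms for run and library type. Of the metatarsals, control 1 and 50 MPa 4 were of run 1, and 50 MPa 4 was the 1 unstranded library. Comparisons of the tissues at 0 and 50 MPa therefore also rest partly on the terms for run and library type. At 5 MPa, all 4 hip cap and all 4 metatarsal libraries shared 1 run and library type. All 8 cartilage markers (Acan, Comp, Hapln1, Cnmd, Matn1, Matn3, Snorc and Ucma) were called higher in hip caps at each pressure. Of all genes, 14.6%, 18.9% and 10.6% were called higher at 0, 5 and 50 MPa. Both tissues are labelled as cartilage, so these markers cannot check the tissue labels.

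The 7 genes lie on 6 chromosomes. In the GENCODE M21 annotation of GRCm38, Col2a1 spans chr15:97975602-98004695 on the minus strand, Col9a1 chr1:24177610-24252684, Col9a2 chr4:121039385-121055322, Col9a3 chr2:180597790-180622189, Col11a1 chr3:114030540-114220718, Col11a2 chr17:34039437-34066685 and Col27a1 chr4:63214004-63334991, all on the plus strand. Their longest transcripts have between 32 exons (Col9a2) and 67 exons (Col11a1) and between 2924 and 7667 bases. Although all encode repeated triplets with glycine, no word of 31 bases in their longest transcripts was found, in the same direction, in another gene's transcripts. The opposite strand and the shorter transcripts of the 7 genes were not compared. Col9a3 overlaps Tcfl5 on the opposite strand, and in the 6 unstranded libraries reads from the overlap cannot be assigned by strand. The intron of Col27a1 holds the microRNA gene Mir455.

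The stretches just before the transcription starts are shown for Col9a1, which has a pair of starts whose reads the gene count joins, and for Col11a1 and Col11a2, whose products form 1 trimer and whose ratio differed between the tissues. The RefSeq promoter table for GRCm38.p6 holds 5 of the 7 genes, with no entry used here for Col2a1 and Col9a3. Each line gives the 250 bases before the start, 5′ to 3′ on the plus strand. Capitals mark a GC box, searched as GGGCGG, and a TATA box, searched as TATAAA. A SOX-type core was looked for by the letters ACAATG and also, with matches of both forms counted together, by ACAAAG. All were searched on both strands, and in the windows printed no match overlapped another.
Col9a1, first start, chr1:24177360-24177609: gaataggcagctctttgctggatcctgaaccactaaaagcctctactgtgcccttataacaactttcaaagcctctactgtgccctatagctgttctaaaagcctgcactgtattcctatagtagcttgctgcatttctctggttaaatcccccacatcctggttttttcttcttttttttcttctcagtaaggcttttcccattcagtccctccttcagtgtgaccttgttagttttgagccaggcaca
Col9a1, second start, chr1:24194953-24195202: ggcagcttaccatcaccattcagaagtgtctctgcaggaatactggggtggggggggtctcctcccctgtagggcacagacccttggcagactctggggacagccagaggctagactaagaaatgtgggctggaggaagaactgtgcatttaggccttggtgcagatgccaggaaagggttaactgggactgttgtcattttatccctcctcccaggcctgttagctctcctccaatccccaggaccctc
Col11a1, chr3:114030290-114030539: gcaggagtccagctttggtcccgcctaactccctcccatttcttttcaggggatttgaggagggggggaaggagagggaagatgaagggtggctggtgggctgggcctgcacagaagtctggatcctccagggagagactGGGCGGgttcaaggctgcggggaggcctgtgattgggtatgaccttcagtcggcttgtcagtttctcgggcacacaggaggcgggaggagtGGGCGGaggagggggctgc
Col11a2, chr17:34038888-34039137: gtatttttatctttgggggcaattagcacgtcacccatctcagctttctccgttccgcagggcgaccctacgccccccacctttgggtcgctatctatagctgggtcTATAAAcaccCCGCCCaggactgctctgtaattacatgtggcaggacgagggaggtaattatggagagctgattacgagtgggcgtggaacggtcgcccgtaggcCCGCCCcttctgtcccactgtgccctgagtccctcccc
The Col11a1 window had 2 GC boxes and the Col11a2 window 2 and a TATA box, whereas neither window of Col9a1 held any of these motifs. Windows of Col9a2 and Col27a1, not printed, had 2 and 1 GC boxes. A SOX-type core was in none of the 6 windows. Of all 32851 windows of this length in the table, 32.7% held a GC box, 12.4% a TATA box and 25.2% a SOX-type core. These counts describe letters in a window and say nothing of whether a factor binds there or elsewhere.

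Together the 7 genes took between 1.14% and 4.75% of all counts in the 10 hip cap libraries (median 3.07%) and between 0.217% and 0.563% in the 12 metatarsal libraries (median 0.387%). The ranges of these libraries did not overlap, but hip cap control 4, left out, had 0.544%, within the metatarsal range. In bulk RNA, fewer chondrocytes in a sample and less collagen RNA in each chondrocyte cannot be told apart. Col2a1 made up 72.3% to 79.9% of the counts of the 7 genes in hip caps and 40.9% to 53.6% in metatarsals.

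Col2a1, the chain of collagen II, had the largest difference between the tissues of the 7 genes at each of the 3 pressures. In hip caps it stood at 51080.5, 29230.4 and 45222 CPM in the 3 controls, at 23598, 32068, 14397 and 35800.5 CPM at 5 MPa and at 20909.9, 24933 and 21287 CPM at 50 MPa. Metatarsals had 1164, 886, 2613 and 893 CPM in controls, 851, 1568, 952 and 1463 CPM at 5 MPa and 1520.1, 1044, 1125 and 2092 CPM at 50 MPa. The lowest hip cap library, replicate 3 at 5 MPa, was still above the highest metatarsal library, control 3. The fitted difference was 27.2-fold in controls (95% interval 11.3 to 65.6, log2 fold change 4.77 ± 0.61 SE, adjusted p = 5.52e-06), 21.9-fold at 5 MPa (adjusted p = 2.87e-08) and 12.3-fold at 50 MPa (adjusted p = 0.000137), by edgeR's quasi-likelihood test with Benjamini-Hochberg adjustment over all 21283 genes tested. The difference at 50 MPa had a log2 value of 3.62, which was 4.28 without metatarsal 50 MPa replicate 4, 2.93 with all 24 libraries and 2.75 with library sizes alone, and Col2a1 was called in each.

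**Figure D1:**
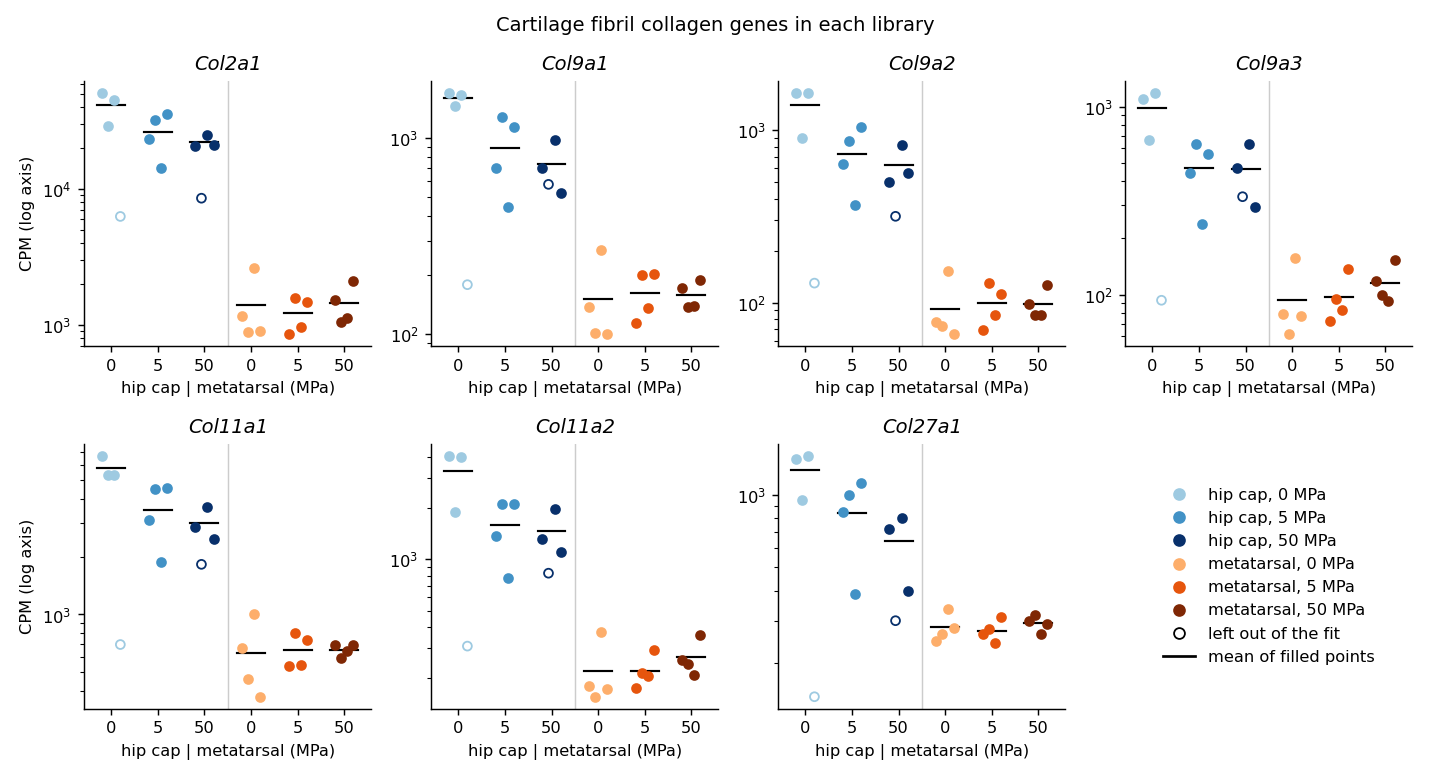
CPM of the 7 collagen genes in each library (log axis) by tissue and pressure in MPa. Filled points are the 22 libraries of the fit, open points the 2 hip cap libraries left out, and bars the mean of the filled points. In every panel the filled hip cap points lie above the filled metatarsal points, and within hip caps the control mean is the highest.

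The 3 chains of collagen IX were each higher in hip caps. Col9a1 stood at 1692, 1449 and 1646 CPM in hip cap controls, 699, 1278, 445 and 1142 CPM at 5 MPa and 705, 977 and 525 CPM at 50 MPa, against 100.1 to 267 CPM in the 12 metatarsal libraries. Col9a2 stood at 1626, 898 and 1635 CPM in hip cap controls, 635, 862, 368 and 1041 CPM at 5 MPa and 499, 813 and 563 CPM at 50 MPa, against 65.7 to 152 CPM in metatarsals. For both genes, no hip cap library of the fit reached down to the metatarsal range, and replicate 3 at 5 MPa was the lowest. Col9a3 stood at 1099, 666 and 1183 CPM in hip cap controls, 446, 635, 237 and 560.2 CPM at 5 MPa and 474, 631 and 294 CPM at 50 MPa, against 61.6 to 157 CPM in metatarsals. In controls the difference was 14.5-fold for Col9a2 (log2 fold change 3.86 ± 0.50 SE, adjusted p = 1.24e-05), 10.2-fold for Col9a1 (3.35 ± 0.53, adjusted p = 0.000108) and 9.94-fold for Col9a3 (3.31 ± 0.51, adjusted p = 8.61e-05) by edgeR. Col9a2 had the largest difference of the 3 at each pressure, with 7.34-fold at 5 MPa and 5.31-fold at 50 MPa.

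Both chains specific to collagen XI followed the same order. Col11a1 stood at 6726, 5325 and 5308 CPM in hip cap controls, 3099, 4491, 1884 and 4584 CPM at 5 MPa and 2859.8, 3629.7 and 2466 CPM at 50 MPa. In metatarsals it stood at 669, 463, 1008 and 372 CPM in controls, 539.7, 805, 543 and 734 CPM at 5 MPa and 693, 589.9, 645 and 694 CPM at 50 MPa, and control 3 was the highest metatarsal library. Col11a2 stood at 4077, 1899.9 and 4012 CPM in hip cap controls, 1378, 2111, 776 and 2107 CPM at 5 MPa and 1310.5, 1988 and 1108 CPM at 50 MPa, and at 155 to 372 CPM in metatarsals. Neither gene overlapped between the tissues at any pressure in the libraries of the fit. In controls the difference was 8.63-fold for Col11a1 (log2 fold change 3.11 ± 0.44 SE, adjusted p = 1.95e-05) and 14.4-fold for Col11a2 (3.85 ± 0.53, adjusted p = 1.95e-05) by edgeR.

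Col27a1 had the smallest difference of the 7 between the tissues. It stood at 1412, 953 and 1459 CPM in hip cap controls, 853, 998, 386 and 1127 CPM at 5 MPa and 721, 804 and 397 CPM at 50 MPa. Metatarsals had 247, 263, 336 and 280.0 CPM in controls, 263, 277, 241 and 309 CPM at 5 MPa and 297, 316, 264 and 291 CPM at 50 MPa, the narrowest spread of any of the 7 genes in this tissue, with coefficients of variation of 13.7%, 10.4% and 7.32%. The lowest hip cap libraries, replicate 3 at 5 MPa with 386 CPM and replicate 4 at 50 MPa with 397 CPM, came close to the highest metatarsal library, control 3 with 336 CPM. The difference was 4.86-fold in controls (log2 fold change 2.28 ± 0.37 SE, adjusted p = 9.19e-05), 3.09-fold at 5 MPa (adjusted p = 3.12e-05) and 2.18-fold at 50 MPa (adjusted p = 0.0425) by edgeR, and the call at 50 MPa was lost in 17 of the 22 fits that left out 1 library, with the highest adjusted p of 0.44 without metatarsal 50 MPa replicate 4.

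All 7 genes thus passed an adjusted p of at most 0.05 as higher in hip caps at each pressure, where 14.6% of all genes tested were called higher at 0 MPa, 18.9% at 5 MPa and 10.6% at 50 MPa. Groups of the fit did not overlap for any of the 7 at any pressure, against 19.6%, 19.2% and 18.4% of all genes lying wholly above. Hip cap control 4, left out, had 179 CPM of Col9a1, 130 of Col9a2, 93.2 of Col9a3, 697 of Col11a1 and 309 of Col11a2. These lay within the metatarsal control ranges, and its Col27a1, at 144 CPM, lay below. Hip cap 50 MPa replicate 2, also left out, had 299.5 CPM of Col27a1, within the range of metatarsals at 50 MPa. Their median log2 fold change was 3.35 in controls, 2.45 at 5 MPa and 2.14 at 50 MPa, beside -0.081, -0.079 and -0.0087 over all genes. Within the single run and library type of the 5 MPa libraries, fitted alone, the 7 differences ran from 1.67 (Col27a1) to 4.50 (Col2a1), with adjusted p between 9.75e-06 and 0.00108 by edgeR. Within run 1, the 3 hip cap controls against the 1 metatarsal control of that run gave 2.36 to 5.16, where the lone library was assumed to vary like the others. With all 24 libraries the control tissues differed by 1.26 (Col27a1, adjusted p = 0.137, not called) to 3.85 by edgeR, with 6 of the 7 called. With library sizes alone, all 7 were called at 0 MPa (1.36 to 3.85) and at 5 MPa (1.02 to 3.83) by edgeR, with lower values. At 50 MPa the count of 7 rested on the scaling and on the libraries: it was 1 (Col2a1) with library sizes alone, a scaling that moved the median of all genes to -0.90, and also 1 with all 24 libraries or without metatarsal 50 MPa replicate 4, the only unstranded metatarsal library.

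**Figure D2:**
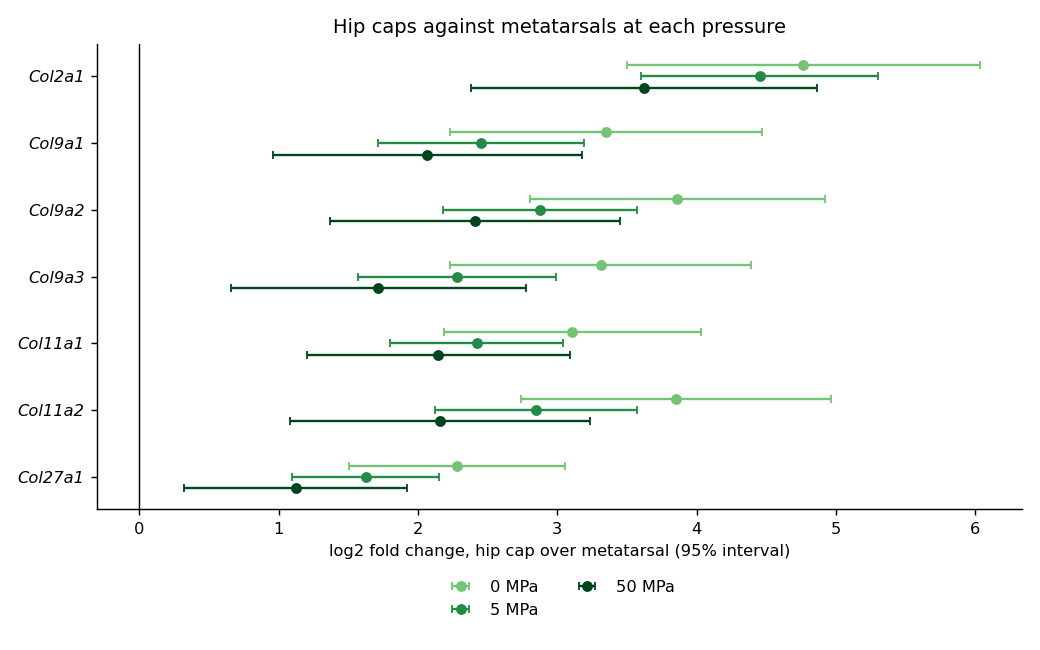
Log2 fold change of hip caps over metatarsals (x axis) for each collagen gene (y axis) at 0, 5 and 50 MPa, with 95% intervals from edgeR. Col2a1 lies farthest to the right at each pressure (4.77, 4.45 and 3.62) and Col27a1 farthest to the left (2.28, 1.63 and 1.12), and no interval reaches 0.

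Set against each other per kb of transcript, the genes kept Col2a1 first and Col11a1 second in both tissues. In hip cap controls the mean levels were 8198 ± 2216 CPM per kb for Col2a1 (SD, n = 3), 755 ± 106 for Col11a1, 551 ± 205 for Col11a2, 474 ± 145 for Col9a2, 416 ± 33.6 for Col9a1, 323 ± 91.0 for Col9a3 and 167 ± 36.7 for Col27a1. In metatarsal controls they were 272 ± 162 CPM per kb for Col2a1 (SD, n = 4), 81.9 ± 36.8 for Col11a1, 39.5 ± 20.6 for Col9a1, 37.0 ± 5.06 for Col27a1, 36.3 ± 16.8 for Col11a2, 31.5 ± 13.7 for Col9a2 and 30.7 ± 14.1 for Col9a3. The last 5 of the metatarsal order lay within their spread of one another, and in hip caps the same held for the neighbours Col11a2, Col9a2 and Col9a1. Col27a1 was last in hip caps, whereas in metatarsals it came next after Col9a1.

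The proportions between the chains differed between the tissues. Ratios of 2 genes in the same library do not depend on how libraries are scaled, and 8 were compared by an exact permutation test, two-sided, that exchanged tissue labels within each pressure, with p-values adjusted over the 8, and the smallest p this test can give is 1.17e-05. Relative to Col2a1, all 4 genes compared were lower in hip caps. Col27a1 per Col2a1 had a mean ratio per kb of 0.0203 ± 0.00333 in the 10 hip cap libraries (SD, range 0.0125 to 0.0242) and 0.155 ± 0.0437 in the 12 metatarsal libraries (range 0.0861 to 0.210), a difference of -2.90 on the log2 scale with adjusted p = 2.33e-05 by the exact permutation test. The ranges of this ratio were far apart, with no hip cap library near a metatarsal one. For Col11a1 per Col2a1 the log2 difference was -1.87, for Col9a1 per Col2a1 -1.79 and for Col11a2 per Col2a1 -1.44, each with the same adjusted p = 2.33e-05 by the exact permutation test. Col2a1 RNA thus took a larger part relative to these 4 genes in hip caps.

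Between the chains of one collagen the differences were smaller. The ratio of Col9a1 to Col9a2 per kb was 0.923 ± 0.171 in hip caps (SD, n = 10) and 1.24 ± 0.0977 in metatarsals (n = 12), a log2 difference of -0.45 (adjusted p = 0.000233, exact permutation test). That of Col9a3 to Col9a2 was 0.673 ± 0.117 and 1.02 ± 0.146, a log2 difference of -0.59 (adjusted p = 3.73e-05, exact permutation test). Relative to Col9a2, the other chains of collagen IX were thus lower in hip caps, although in the 4 against 4 libraries at 5 MPa, of 1 run and library type, Col9a3 to Col9a2 did not pass (adjusted p = 0.0653, exact permutation test), while 6 of the 8 ratios did. Col9a1 to Col9a3 had 1.38 ± 0.216 in hip caps and 1.24 ± 0.183 in metatarsals and did not pass (log2 difference 0.14, adjusted p = 0.109, exact permutation test). For collagen XI, Col11a1 to Col11a2 per kb was 1.66 ± 0.326 in hip caps and 2.22 ± 0.442 in metatarsals, a log2 difference of -0.44 (adjusted p = 0.00369, exact permutation test) with overlapping ranges of 1.04 to 2.21 and 1.53 to 2.98. The transcripts of this pair differ in GC content (48.0% and 62.9%), and with each library's trend with GC content removed their log2 fold changes between control tissues were 3.20 and 3.83, beside 3.11 and 3.85 without it.

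**Figure D3:**
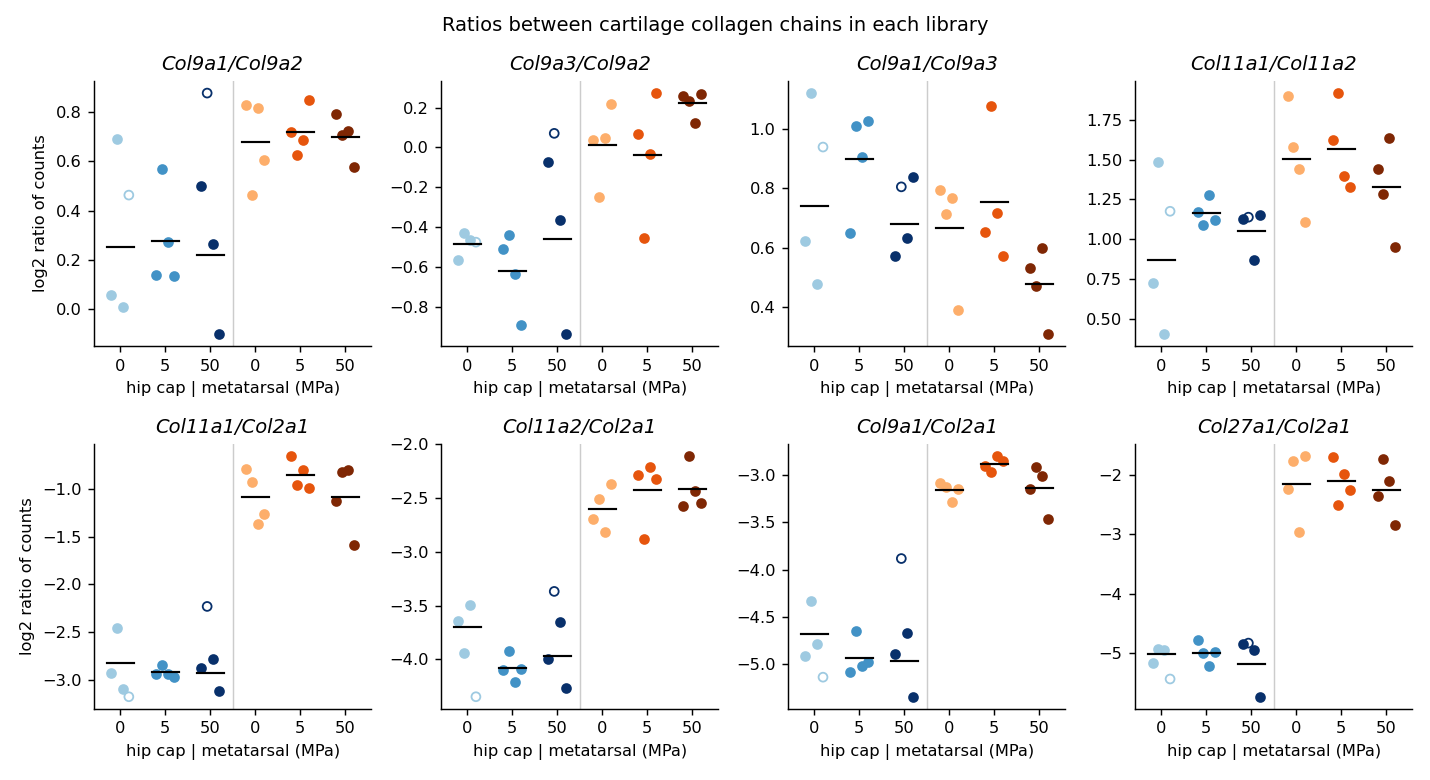
Log2 ratio of the counts of 2 collagen genes in each library, by tissue and pressure in MPa, with filled points for the 22 libraries of the tests, open points for the 2 left out and bars for the mean of the filled points. The 4 ratios to Col2a1 (bottom row) separate the tissues in full, whereas the ratios within collagen IX and XI (top row) overlap.

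Under pressure, all 7 genes had lower fitted levels in hip caps than in hip cap controls, and none passed the test. At 50 MPa the log2 fold changes were -1.59 ± 0.47 SE for Col11a2 (95% interval -2.58 to -0.60, adjusted p = 0.0537), -1.50 ± 0.45 for Col9a2 (adjusted p = 0.0555) and -1.17 ± 0.35 for Col27a1 (adjusted p = 0.0553) by edgeR, just outside the threshold. Col9a3 had -1.45 (adjusted p = 0.0726), Col9a1 -1.27 (0.122), Col2a1 -1.25 (0.156) and Col11a1 -0.87 (0.205) by the same edgeR test. Without hip cap control 3, the unstranded control, Col2a1 had -1.94 (adjusted p = 0.381, edgeR). No member was therefore called, where 1.97% of all genes were called lower in this comparison, while all 7 had an unadjusted p under 0.05 by edgeR, against 10.1% of all genes in this direction. DESeq2 called 4 of the 7 (Col11a2, Col9a2, Col27a1 and Col9a3), and edgeR called the same 4 when genes with fewer than 10 counts in any library were left out. The study named Col11a1 among the genes that differed in hip caps at 50 MPa, whereas no fit here called Col11a1. The cause of this difference was not tested. The 3 libraries at 50 MPa lay wholly below the 3 controls for 6 genes, all but Col11a2, whose highest value at 50 MPa (1988 CPM in replicate 3) exceeded its lowest control (1899.9 CPM in replicate 2), where 7.56% of all genes lay wholly below. With all 24 libraries the 7 values were between -1.26 and -0.59 with none called by edgeR. Within run 1, without batch terms, the 7 log2 fold changes were between -1.17 and -0.90 with adjusted p from 0.31 to 0.537 by edgeR. Of the 3 controls 2 were stranded and none of the libraries at 50 MPa was, and the part of library type in these values was not tested beyond its term in the fit.

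At 5 MPa the fitted log2 fold changes in hip caps were between -1.04 ± 0.53 SE (Col11a2, adjusted p = 0.357) and -0.52 ± 0.58 (Col2a1, 95% interval -1.73 to 0.69, adjusted p = 0.696) by edgeR. The count of members called was 0 by edgeR and by DESeq2, where 0.0235% of all genes were called by edgeR, and 0 had an unadjusted p under 0.05, against 15.6% of all genes. Col9a1, Col9a3 and Col11a1 lay wholly below the controls at 5 MPa, against 7.85% of all genes. These directions rested on leaving out hip cap control 4, in which all 7 genes were far below the other controls: with all 24 libraries every one of the 7 log2 fold changes turned positive, from 0.22 (Col9a3) to 0.54 (Col2a1), and none passed. All libraries at 5 MPa were of run 2 and all controls used were of run 1, so run and pressure are separated only through the metatarsals.

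Among the hip caps at 5 MPa, replicate 3 had the lowest level of all 7 genes, with 14397 CPM of Col2a1 where the other 3 had at least 23598. The same library had 5354 CPM of Col1a1, the main chain of collagen I of bone, tendon and skin, where the other 3 libraries at 5 MPa had between 495 and 1476 CPM. Control 4, left out of the fit, had 3502 CPM of Col1a1 and 6279 CPM of Col2a1. Among the 50 MPa libraries, replicate 4 was lowest for Col9a1, Col9a3, Col11a1, Col11a2 and Col27a1 but not for Col2a1 or Col9a2. The part of collagen I-rich tissue in these values was not tested.

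**Figure D4:**
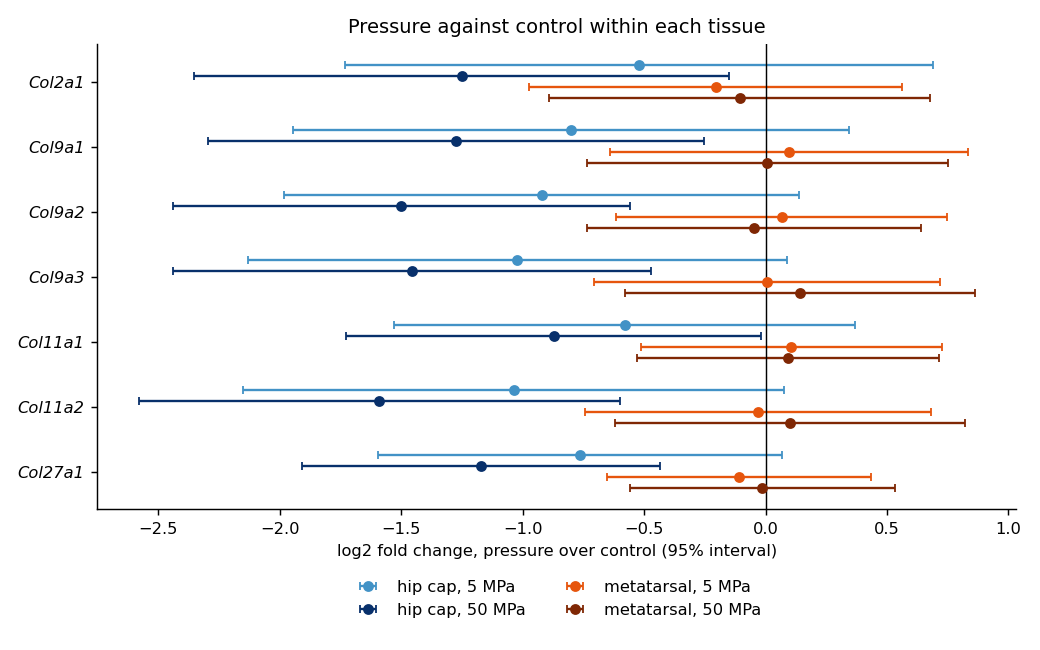
Log2 fold change of 5 or 50 MPa over control within each tissue (x axis) for each collagen gene (y axis), with 95% intervals from edgeR. All 14 hip cap points lie below 0, from -1.59 to -0.52, and the metatarsal points lie within -0.21 and 0.14.

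In metatarsals the 7 genes stayed close to their controls. Log2 fold changes were between -0.21 (Col2a1) and 0.11 (Col11a1) at 5 MPa and between -0.11 (Col2a1) and 0.14 (Col9a3) at 50 MPa, each with an adjusted p of 1 by edgeR. The widest 95% interval at 50 MPa, that of Col2a1, ran from -0.89 to 0.68 on the log2 scale. The narrowest, that of Col27a1, ran from -0.56 to 0.53. Changes of up to about these sizes lay within the error of the fit. Its estimate of spread for each gene was shared by all 22 libraries, and so by the hip cap tests as well. Fitted apart, the median dispersion over genes, a measure of spread between replicates, was 0.0947 in hip caps and 0.0261 in metatarsals. No member was called by edgeR or DESeq2 and none had an unadjusted p under 0.05 in either comparison. Over all genes, 0% were called at 5 MPa and 0% at 50 MPa, and 3.44% and 4.10% had an unadjusted p under 0.05 by edgeR. Sign changes between the analyses were common here with values near 0, and for no member did the pressure group lie wholly above or below the controls, against 1.65% of all genes above and 1.24% below at 5 MPa, and 2.38% above and 2.11% below at 50 MPa.

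The difference between the tissues in their response was tested as an interaction. At 50 MPa it was negative for all 7 genes, from -1.69 ± 0.53 SE (Col11a2, adjusted p = 0.105) to -0.96 ± 0.46 (Col11a1, adjusted p = 0.26) by edgeR, and none passed, where 0.179% of all genes were called in this direction. Of the 7, 6 (all but Col2a1) had an unadjusted p under 0.05 by edgeR, against 8.38% of all genes, and DESeq2 called 2 (Col11a2 and Col9a3). At 5 MPa the interaction ran from -1.03 (Col9a3, adjusted p = 0.475) to -0.31 (Col2a1, adjusted p = 0.869) by edgeR, with 0 calls by either tool, against 0.0188% of all genes by edgeR, and 0 at an unadjusted p under 0.05, against 11.9% of all genes. A different response of the tissues to pressure was thus not shown for any of these genes by the main test. The effect of pressure on the chain ratios was compared 32 times by the exact permutation test, two-sided, whose smallest p is 0.0286 with 4 libraries in the pressure group and 0.1 with 3 against 3, so that no single ratio could pass after adjustment over 32. Col9a1 to Col2a1 in metatarsals at 5 MPa was at that limit, with all 4 libraries above all 4 controls (log2 difference 0.28, exact permutation p = 0.0286, adjusted p = 0.61).

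The 7 genes varied together between libraries of one tissue. After subtracting each group's mean of log2 CPM, Pearson's r over the 21 pairs of genes was between 0.849 and 0.971 across the 10 hip cap libraries (median 0.889) and between 0.513 and 0.984 across the 12 metatarsal libraries (median 0.882). The points of each correlation share the same libraries and their scaling, and the values are a description. Among 13898 other named genes with a mean of at least 1 CPM, those most like the mean pattern of the 7 over the 22 libraries were Cnmd (r = 0.988), Matn3 (0.987), Fry (0.986), Kif21a (0.985) and Chadl (0.984), over points that include both tissues. After subtracting the group means the leading genes were Matn3 (0.917), Prelp (0.897), Comp (0.896), Cnmd (0.882) and Ncmap (0.863). Matn3 encodes matrilin 3, Comp cartilage oligomeric matrix protein and Cnmd chondromodulin, all proteins of cartilage, and Matn3 and Cnmd were in both lists.

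No other fibrillar or FACIT collagen passed as higher in hip caps at any pressure by edgeR. Of the 7 other fibrillar collagen genes measured, 0 rose and 3 fell in hip cap controls against metatarsal controls (Col1a1, Col3a1 and Col5a1), with a median log2 fold change of -0.84 beside -0.081 over all genes. Col1a1 stood at 529, 495 and 969 CPM in hip cap controls and 2214, 2974, 4276 and 2976 CPM in metatarsal controls (log2 fold change -2.07, adjusted p = 0.0205, edgeR). Col1a2, the partner chain of collagen I, had -0.84 and did not pass (adjusted p = 0.206, edgeR). Col3a1, the chain of collagen III of soft connective tissue, was lower in hip caps with a log2 fold change of -3.18 (adjusted p = 2.89e-05, edgeR). Of the 6 other FACIT collagens tested, 0 rose and 3 fell, among them Col14a1 with -5.75 (adjusted p = 1.28e-05, edgeR), while Col12a1 and Col16a1 had 0.28 and -0.56 and did not pass. Of all genes, 16.4% were called lower in controls. At 5 MPa, within 1 run and library type, the other fibrillar collagens had 0 higher and 2 lower (Col3a1 and Col5a1) and the FACIT collagens 0 higher and 4 lower, against 19.2% of all genes called lower. At 50 MPa 3 of 7 and 4 of 6 were lower, against 9.84% of all genes.

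Genes that modify, fold, trim and cross-link collagen were more often higher than lower in hip caps. Of 31, 19 rose and 5 fell in controls (median log2 fold change 0.87), against 14.6% and 16.4% of all genes called higher and lower. At 5 MPa 19 rose and 5 fell (median 0.70), against 18.9% and 19.2% of all genes. At 50 MPa 15 rose and 5 fell (median 0.71), against 10.6% and 9.84% of all genes. Serpinh1, the collagen chaperone HSP47, stood at 1613, 991 and 1608 CPM in hip cap controls and 399.7, 459, 453 and 381 CPM in metatarsal controls (log2 fold change 1.60, adjusted p = 8.29e-06, edgeR). P4hb, the disulfide isomerase subunit of prolyl 4-hydroxylase, had 1.54 (adjusted p = 0.00079, edgeR), and P4ha1, a catalytic subunit, 0.80 (adjusted p = 0.0649, edgeR), which did not pass. In hip caps at 50 MPa, where edgeR called none of the 7 cartilage fibril collagens and DESeq2 4, 7 of the 31 fell and 0 rose by edgeR (median -0.23, 1.97% of all genes called lower). These were Serpinh1 (-1.04, adjusted p = 0.0146, edgeR), Fkbp10 (-0.99), Ppib (-0.68), P3h1 (-0.82), P3h3 (-0.86), P3h4 (-0.62) and Adamts3 (-1.18), named because they passed. Fkbp10 and Ppib encode prolyl isomerases, the P3h genes belong to the prolyl 3-hydroxylase family, and ADAMTS3 removes the amino-terminal propeptide of collagen II.

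**Figure D5:**
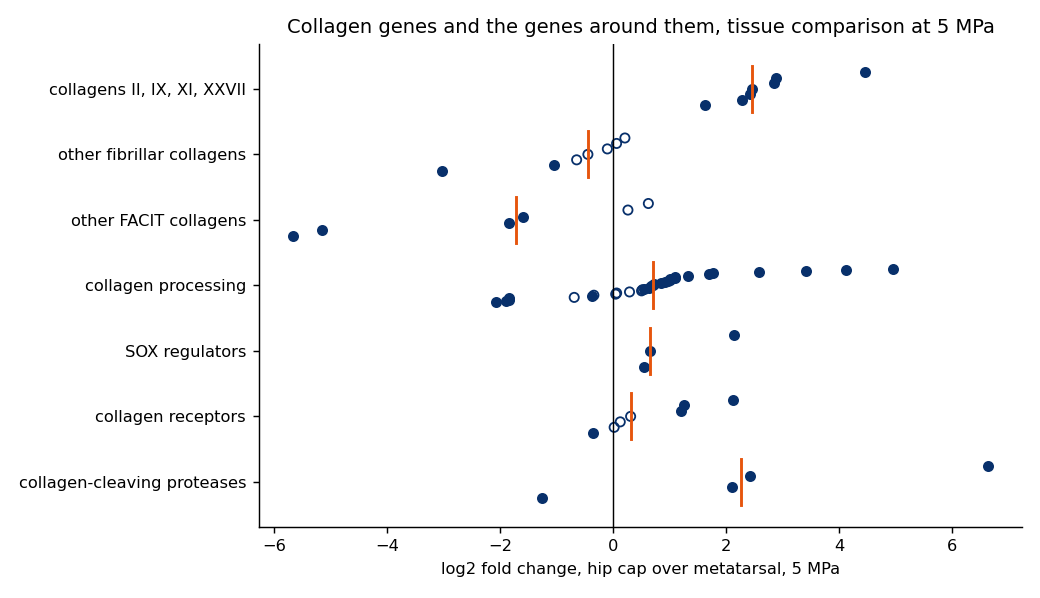
Log2 fold change of hip caps over metatarsals at 5 MPa (x axis) for the 7 cartilage fibril collagens and the genes of 6 related lists (y axis), with filled points for an adjusted p of at most 0.05 by edgeR, open points for the rest and vertical bars for the list medians. The cartilage fibril collagens have a median of 2.45 with all points filled, and the other fibrillar collagens a median of -0.45.

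The 3 SOX genes known to drive cartilage collagens were all called higher in hip caps in controls and at 5 MPa, but only 1 at 50 MPa. Over all genes, 14.6%, 18.9% and 10.6% were called higher at 0, 5 and 50 MPa. Sox9 stood at 956, 689 and 774 CPM in hip cap controls, 495, 523, 327 and 689 CPM at 5 MPa and 297, 308 and 480.2 CPM at 50 MPa, and at 96.0 to 151 CPM in metatarsals. Its log2 fold change between control tissues was 2.55 (adjusted p = 4.87e-06, edgeR), with 1.10 for Sox5 and 0.87 for Sox6. In hip caps at 50 MPa Sox9 fell by 1.23 on the log2 scale (adjusted p = 0.028, edgeR), where 1.97% of all genes were called lower. All 3 libraries lay below all 3 controls, where 7.56% of all genes lay wholly below. Sox5 and Sox6 had -0.60 and -0.31 and did not pass. In metatarsals no SOX gene passed at either pressure. Of the 8 cartilage markers, 1 fell in hip caps at 50 MPa (Comp, -1.35, adjusted p = 0.043, edgeR), against 1.97% of all genes called lower. Acan, the core protein of aggrecan, had -1.18 and did not pass (adjusted p = 0.126, edgeR). The calls of Sox9 and Comp at 50 MPa were not repeated in the other fits, and library type differed between these groups as well.

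Markers of other cell types were set beside these values. Fibroblast markers (7 genes, of which Col1a1, Col1a2 and Col3a1 are also among the other fibrillar collagens) summed to 2462 to 3638 CPM in hip cap controls, 2629 to 10283 at 5 MPa and 2552 to 3772 at 50 MPa, with the highest value in replicate 3 at 5 MPa, where the 7 collagen genes were lowest. That value was mostly collagen I, which bone also holds, with 5354 CPM of Col1a1 and 3390 CPM of Col1a2. The remaining fibroblast markers together did not peak in that library. In metatarsal controls the fibroblast markers summed to 5512 to 8304 CPM. Skeletal muscle markers (8 genes) summed to 957 to 2371 CPM in metatarsal controls and 7.05 to 11.3 CPM in hip cap controls. In hip caps they summed to 14.4 to 27.2 CPM at 5 MPa and 26.6 to 43.0 CPM at 50 MPa, where Ttn passed as higher (1.95, adjusted p = 0.0268, edgeR). Bone markers (5 genes) summed to 1119 to 2135 CPM in hip cap controls, 894 to 1207 CPM at 5 MPa, 606 to 786 CPM at 50 MPa and 78.7 to 218 CPM in metatarsal controls. Most of that sum was Ibsp, which had -1.40 at 50 MPa and did not pass (adjusted p = 0.137, edgeR), while Sp7 passed as lower (-1.08, adjusted p = 0.0342, edgeR) and the list median was -0.31. Blood and immune markers (4 of 5 tested) summed to 14.7 to 25.1 CPM in hip cap controls, 33.8 to 156 CPM at 5 MPa and 36.8 to 46.0 CPM at 50 MPa. Cd68 passed as higher at 50 MPa (1.76, adjusted p = 0.0444, edgeR), where 3.51% of all genes were called higher. Endothelial markers (4 genes) summed to 43.1 to 98.0 CPM in hip cap controls, 51.5 to 223 CPM at 5 MPa and 74.2 to 113 CPM at 50 MPa. Among markers that passed the filter on low counts, only Myog and Tnnc2 were at 0 counts in every library of a group. For Myog these were hip caps at 0 and 50 MPa, and for Tnnc2 hip cap controls. The blood and immune marker that failed the filter was not examined. The part of these cells in the levels of the 7 collagen genes was not tested.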

How the data were processed

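Members and gene lists were chosen with earlier results of these data known. RNA of 24 libraries was measured, and per the labels and the study's methods the authors trimmed reads with Trim Galore 0.6.5, ran kallisto and added transcripts up to genes, so that the deposited values are estimated counts without normalization, and the submitters' notes name the build GRCm39. The RNA was partly degraded and depleted of ribosomal RNA, so coverage can depend on transcript length and GC content. The table holds 0 columns of other samples. Names, lengths and GC content came from GENCODE M21 (GRCm38), which named 48845 of 52178 genes, and 1 gene of the lists, Col21a1, matched none.

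Counts were rounded and fitted with edgeR 4.0.16 (R 4.3.3): filterByExpr over the 6 groups (21283 genes kept), TMM, and the robust quasi-likelihood test with terms for group, sequencing run and library type. Tests were two-sided, adjusted by Benjamini-Hochberg over all genes within a comparison at 0.05. Standard errors were derived from each fold change and its test statistic, intervals cover 95%, and log2 CPM had a prior count of 2. Library type came from the labels. The run was read from a colour strip of the study's clustering (9 libraries in run 1, 15 in run 2), whereas its methods give 17 and 7 libraries for the kits, so the run term is uncertain. Hip cap replicates were separate mice and metatarsal replicates separate pools. No columns were identical. Chain ratios used counts plus 0.5 and exact permutation of tissue labels within pressures, without terms for run or library type. The fit was tested on simulated data. Depth, the totals of 4185557 to 25104484 counts, sets the precision of a level, and the smallest count of a member in a library was 404.

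All 7 members were named. From each other list the 3 genes with the highest mean CPM were named (all where the list had at most 4), as were the 5 genes most like the members' mean pattern, before and after subtracting group means, without predicted genes and pseudogenes. Genes beyond this rule were named because they passed or made up a small count. Alternatives were DESeq2 1.42.0, scaling by RLE, by library sizes only or with mitochondrial genes left out, no filter or a minimum of 10 counts per library, the full set of 24 libraries, fewer batch terms, a replicate block, GC trends removed, single runs, each tissue by itself and the omission of each library. The fits within run 1 and with edgeR's earlier quasi-likelihood method were chosen after seeing the data. Alternatives were read for the 7 members and, in part, for the chain ratios. Calls of genes on the other lists were not repeated under them.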

Additional observations from a re-analysis of the deposited data

Results flagged for a closer look

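Dixon's test for an outlying sample was applied in the groups of 4 libraries to the log2 CPM of the 7 genes and to the 8 chain ratios, 60 tests in all, and it flags about 1 in 20 groups by chance. It flagged 2. Col11a2 was at a log2 CPM of 8.54 in metatarsal control 3 and between 7.28 and 7.49 in the other 3 controls, and that library was also the highest metatarsal control for the other 6 genes. The log2 ratio of Col11a2 to Col2a1 was -2.88 in metatarsal 5 MPa replicate 2 and between -2.32 and -2.21 in the other 3 libraries of that group. Without metatarsal control 3 the hip cap controls remained higher for all 7 genes. No interaction of tissue and pressure passed edgeR's test for these genes, with 6 of the 7 at an unadjusted p under 0.05 at 50 MPa and 0 at 5 MPa, whereas DESeq2 called 2 at 50 MPa (Col11a2 and Col9a3).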

How the results depend on the processing

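The counts of 7 higher genes in hip caps at 0 and 5 MPa held under every alternative except that it was 6 with all 24 libraries at 0 MPa (Col27a1 1.26, adjusted p = 0.137, edgeR). Of the 8 chain ratios 7 passed in the main analysis, 8 with all 24 libraries and 6 at 5 MPa alone. At 50 MPa the count of 7 fell to 1 with library sizes alone and with all 24 libraries, and ranged from 1 to 7 when single libraries were left out. In hip caps at 50 MPa against control the count of 0 became 4 with DESeq2, 4 with at least 10 counts in every library and 1 without batch terms, and ranged from 0 to 4 without single libraries (4 without hip cap 5 MPa replicate 3, 3 without hip cap control replicate 2, 2 without hip cap 5 MPa replicate 4, 2 without metatarsal control replicate 3 and 1 without metatarsal control replicate 2). In hip caps at 5 MPa it became 1 without batch terms. For the interaction at 50 MPa it became 2 with DESeq2 and ranged from 0 to 1 without single libraries (1 without hip cap 5 MPa replicate 3 or hip cap control replicate 2). The causes were not tested. Replicate numbers did not pair the libraries, since deviations from the group means of libraries with the same number had correlations from -0.29 to 0.17 across genes. With that number as a replicate block the count was 7, 7 and 6 between the tissues at 0, 5 and 50 MPa (Col27a1 at adjusted p = 0.0702 at 50 MPa, edgeR) and 0 in all comparisons of pressures. Fits within 1 run and library type could be made only between the tissues at 5 MPa and within metatarsals, since no other comparison had libraries of both groups in number there.

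Signs changed only where neither analysis called the gene, as given by these log2 fold changes. With all 24 libraries, values were Col11a1 0.54, Col11a2 0.23, Col27a1 0.45, Col2a1 0.54, Col9a1 0.39, Col9a2 0.34 and Col9a3 0.22 in hip caps at 5 MPa, Col11a1 0.27, Col11a2 0.081, Col27a1 0.37, Col2a1 0.60, Col9a1 0.12, Col9a2 0.095 and Col9a3 0.040 in the interaction at 5 MPa, Col11a2 0.14 and Col27a1 0.077 in metatarsals at 5 MPa, Col27a1 0.016 in metatarsals at 50 MPa. With library sizes alone, values were Col2a1 0.033 in hip caps at 5 MPa, Col11a2 0.22, Col27a1 0.13 and Col2a1 0.056 in metatarsals at 5 MPa, Col27a1 0.23, Col2a1 0.12 and Col9a2 0.19 in metatarsals at 50 MPa. Without batch terms, values were Col11a2 0.011 in metatarsals at 5 MPa, Col27a1 0.053, Col2a1 0.057 and Col9a2 0.10 in metatarsals at 50 MPa. With GC trends removed, values were Col11a2 0.070 in metatarsals at 5 MPa, Col27a1 0.046 and Col9a2 0.018 in metatarsals at 50 MPa. With library type only, values were Col11a2 0.011 in metatarsals at 5 MPa, Col27a1 0.019 in metatarsals at 50 MPa. With at least 10 counts in every library, values were Col9a3 -0.017 in metatarsals at 5 MPa, Col9a1 -0.026 in metatarsals at 50 MPa. Within run 2, values were Col9a3 -0.028 in metatarsals at 5 MPa, Col9a1 -0.071 in metatarsals at 50 MPa. With the tissue fitted alone, values were Col9a3 -0.028 in metatarsals at 5 MPa, Col9a1 -0.072 in metatarsals at 50 MPa. With DESeq2, values were Col9a1 -0.0038 in metatarsals at 50 MPa. With RLE factors, values were Col9a1 -0.0038 in metatarsals at 50 MPa. Without mitochondrial genes, values were Col9a1 -0.0015 in metatarsals at 50 MPa. With the replicate block, values were Col9a2 0.0029 in metatarsals at 50 MPa. Without a filter, values were Col27a1 0.014 in metatarsals at 50 MPa. When 1 library was left out in turn, these ranges crossed 0. They were Col2a1 -0.93 to 0.059 in hip caps at 5 MPa. Col2a1 -0.65 to 0.34 in the interaction at 5 MPa. Col9a3 -0.21 to 0.48, Col11a2 -0.21 to 0.44, Col11a1 -0.12 to 0.60, Col9a1 -0.10 to 0.68, Col9a2 -0.11 to 0.51 and Col2a1 -0.41 to 0.47 in metatarsals at 5 MPa. Col9a1 -0.17 to 0.54, Col27a1 -0.073 to 0.074, Col2a1 -0.29 to 0.51, Col11a1 -0.11 to 0.55, Col11a2 -0.063 to 0.53, Col9a3 -0.046 to 0.57 and Col9a2 -0.21 to 0.36 in metatarsals at 50 MPa.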

Other observations

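Of the collagen receptors, 2 of 7 genes rose and 0 fell in hip cap controls against metatarsal controls, where 14.6% of all genes were called higher and 16.4% lower, and the risen pair was Itga10, the integrin subunit of chondrocytes that binds collagen II (2.57, adjusted p = 1.4e-06, edgeR), and Itga1 (1.31, adjusted p = 0.00162, edgeR). Itgb1, the shared beta subunit, and the discoidin receptor gene Ddr2 had 0.080 and -0.23 and did not pass. At 5 MPa 3 of the 7 receptor genes were higher and 1 was lower (all genes 18.9% and 19.2%), and at 50 MPa 3 and 1 (all genes 10.6% and 9.84%). Among 4 genes for proteases that cleave collagen, Mmp13, the collagenase most active on collagen II, was higher in hip cap controls (321, 685 and 369.7 CPM) than in metatarsal controls (8.22, 22.9, 36.0 and 6.63 CPM, log2 fold change 5.51, adjusted p = 2.16e-05, edgeR) and Mmp14, a membrane protease that activates it, was lower (-2.39, adjusted p = 7.63e-06, edgeR). Ctsk and Mmp8 had 1.14 and 1.08 and did not pass. In hip caps at 50 MPa, Mmp13 stood at 1145, 852 and 1695 CPM with a log2 fold change of 1.47 (not passed, adjusted p = 0.195, edgeR).

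The row of Mir455, the microRNA gene within Col27a1, had low levels. It stood at 5.70, 2.22 and 5.61 CPM in hip cap controls and 0.382, 0.588, 0.685 and 0.308 CPM in metatarsal controls. It was called higher in hip cap controls (log2 fold change 3.95, adjusted p = 0.00165, edgeR), as were 14.6% of all genes. At 5 and 50 MPa the tissues differed by 1.17 and 1.51, and it did not pass at either. In hip caps at 50 MPa it stood at 0 to 1.47 CPM. Reads of the microRNA gene and of the Col27a1 intron around it cannot be told apart in these libraries. The hip cap libraries left out had 6279 (control 4) and 8561 CPM (50 MPa replicate 2) of Col2a1, and 144 and 299.5 CPM of Col27a1, both lower than every hip cap library of the fit.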
